A study of Mus musculus with 4 samples.

Results

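Antisense exonic start sites are alternative start sites (ASSs) that lay over an exon of an annotated gene but on the opposite strand, the class that the Cuffcompare tool marks x. All sites with that code were taken, 1138 of the 42207 ASSs of the study, or 2.70%, and 0 were left out. The sites were counted by WTSS-seq, a method that sequences the 5′ starts of all transcripts, in skeletal muscle of male AMPKα2-/- C57BL/6 mice (KO, n = 2 libraries) and of their wild-type controls (WT, n = 2 libraries), which were adults at about 8 weeks of age. The knockout was carried by the whole animal, and per the study's methods the muscle was the gastrocnemius and each library came from a different mouse. RNA depleted of ribosomal RNA was reverse transcribed with a semirandom primer and a template-switching primer, so that the 5′ end of a read marks where an RNA, or a fragment of an RNA, began.

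The 4 libraries held 1300069 to 2900279 reads, with the WT libraries the shallower ones. Prkaa2, which encodes AMPKα2, had 19 sites and 0 antisense sites. Its summed normalized count was 160 and 180 in KO against 148 and 172 in WT, so the groups overlapped. Per the study, the knockout removed a part of the region encoding the catalytic domain, and which start sites lie in the deleted part was not determined here, so these sums do not check the labels. All 10 myofibre markers had sites, and the summed adipocyte markers were higher in replicate 1 of both groups (6350 in KO and 5722 in WT) than in replicate 2 (2977 in KO and 3097 in WT). Fewer cells of a type and less RNA per cell cannot be told apart in such bulk samples.

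Mammalian genes are often overlapped by RNA from the other strand. Some of it comes from genes annotated there, such as long noncoding RNAs (lncRNAs) and "opposite strand" transcripts, some from divergent transcription at promoters, and some from a neighbouring gene that runs on past its end. The mitochondrial genome is a special case, since both of its strands are transcribed as long precursors and most of its genes lie on the same strand. A class code alone does not say which of these an antisense site is, so each site was placed against the RefSeq genes on its own strand.

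Sites at the starts of genes are shown first, since there the sequence around the site could be read. Of the 1138 antisense sites, 19 (1.67%) lay in the window from 250 bases before to 50 after an annotated gene start, against 4.38% of the sites contained in a transcript on the sense strand and 0.219% of intronic sites. In 16 of them the gene that starts there ran opposite to the site, and in 6 a gene starting there ran in its direction. Sequences of the 4 with most reads were read from the RefSeq promoter windows of GRCm38.p6 and are printed 5′ to 3′ on the strand of the site, with the site in capitals and 30 flanking bases on each side in lower case. The first covers chr13:96542592-96542752 on the plus strand, 95 bases before the start of Polk (DNA polymerase kappa) and 61 bases before that of Cert1 (a ceramide transfer protein), which runs in the direction of the site. The second covers chr12:78226469-78226610 on the minus strand, 105 bases before the start of Gphn (gephyrin). The third covers chr5:136987021-136987086 on the minus strand, 35 bases after the start of Plod3 (a lysyl hydroxylase) and 150 bases before that of Znhit1, which runs in the direction of the site. The last covers chr16:93833241-93833302 on the plus strand, 180 bases before the start of the predicted gene Gm30881. These distances run to the start that sets the promoter window, which can differ from the end of the gene span used further on. By those spans, the Polk site overlaps Cert1 and the Plod3 site overlaps Znhit1, and both count as inside an own-strand gene.
Polk: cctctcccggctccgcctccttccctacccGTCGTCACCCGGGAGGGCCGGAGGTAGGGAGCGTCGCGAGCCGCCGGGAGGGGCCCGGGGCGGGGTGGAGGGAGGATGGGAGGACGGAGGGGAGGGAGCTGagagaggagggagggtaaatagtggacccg
Gphn: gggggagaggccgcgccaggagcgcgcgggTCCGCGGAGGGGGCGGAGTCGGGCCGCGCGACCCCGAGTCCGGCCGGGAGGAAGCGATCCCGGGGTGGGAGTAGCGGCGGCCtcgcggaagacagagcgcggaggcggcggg
Plod3: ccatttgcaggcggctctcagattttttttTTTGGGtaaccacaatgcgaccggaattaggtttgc
Gm30881: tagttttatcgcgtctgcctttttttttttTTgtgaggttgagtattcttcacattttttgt

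The Polk and Gphn sites were broad and GC-rich, and the other pair were narrow and lay at a run of T. The printed Polk stretch had 73.3% G or C and the Gphn stretch 81.0%, against 45.5% at Plod3 and 30.6% at Gm30881. The GC box GGGCGG, searched on both strands, was found in the Polk and Gphn windows and in neither of the others, and 35.6% of all 32817 promoter windows held it. The TATA box TATAAA and the CCAAT box CCAAT were found in none of the 4 windows, against 13.6% and 37.4% of all windows. Of 13 antisense sites of at most 20 bases inside a promoter window, 2 (15.4%) had 8 T in a row within the site or its 10 flanking bases, against 10 of 35 intronic sites (28.6%) and 4 of 242 contained sites (1.65%). The Polk site held 132 and 222 reads in KO against 99 and 167 reads in WT, and the Gphn site 19 and 24 reads in KO against 32 and 13 reads in WT. Both ranges overlapped between the groups.

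Most antisense sites were narrow and shallow. Their median width was 7 bp (quartiles 3 and 18, largest 420 bp) and their median total was 18.5 reads over the 4 libraries, and 598 of the 1138 had 10 to 19 reads. In width they resembled intronic sites, with a median of 7 bp, more than contained sites, with a median of 25 bp. Reads were found in all 4 libraries at 529 sites (46.5%), against 43.1% of intronic and 55.4% of contained sites. At 164 sites (14.4%) a single library held over 80% of the normalized count. The deeper KO libraries lacked reads at 113 and 162 of the sites and the WT libraries at 329 and 377. As every site of the table had at least 10 reads in total, sites of the deeper libraries were admitted more readily.

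The sites belonged to 770 gene symbols, of which 609 had 1 antisense site and 23 had 5 or more. The strands were used about equally, with 581 sites on the plus and 557 on the minus strand. For 716 sites the strand of the labelled gene was in the RefSeq promoter table. In all 716 the site lay opposite to it, which the class code itself requires. The labelled gene was a lncRNA at 403 sites (35.4%) and protein coding at 570 (50.1%), whereas 2.05% of the 39288 other sites with a gene were labelled with a lncRNA.

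Most antisense sites lay inside another gene of their own strand. Such a gene covered 706 sites (62.0%), which held 34.1% of the antisense reads. Of these sites, 354 carried the label of a lncRNA and lay within a protein-coding gene of their own strand. At 352 sites (30.9%, with 26.3% of the reads) no own-strand gene was annotated. The mitochondrial genome had 38 sites (3.34%) with 38.7% of the reads. A further 40 sites lay in a gene whose strand was not known, and 2 lay on a scaffold.

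**Figure D1:**
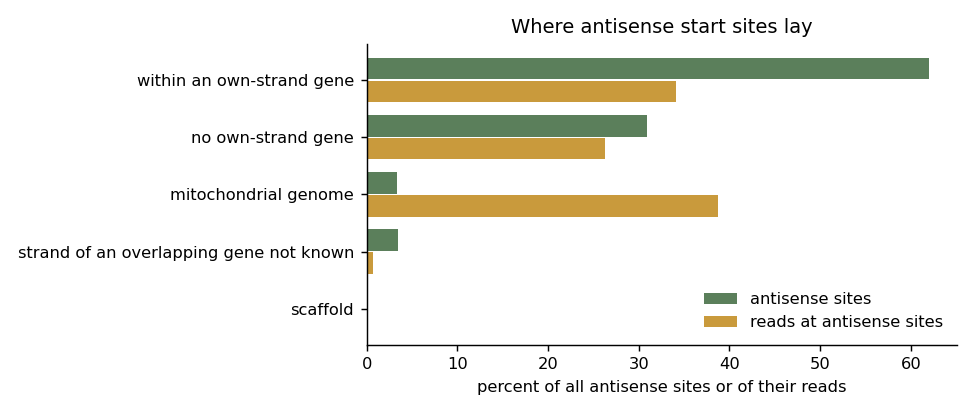
Percent of the 1138 antisense sites (green) and of their 114140 reads (yellow) in each kind of place, by the RefSeq gene on the site's own strand. Sites inside an own-strand gene make up 62.0% of sites and 34.1% of reads, and the 38 mitochondrial sites 3.34% of sites and 38.7% of reads.

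The gene that covered most antisense sites on their own strand was Filip1l, a filamin-interacting protein, which lies inside the span of Cmss1 on the opposite strand. Of the sites coded as antisense to Cmss1, 45 lay in Filip1l on its strand. Their summed normalized count was 364 and 312 in KO against 147 and 225 in WT, and both KO libraries were above both WT libraries. The 8 sites of Filip1l that were coded to it in sense summed to 26.9 and 24.2 in KO against 17.6 and 31.2 in WT, which overlapped. In the other direction, a site of 266 bp labelled Filip1l (chr16:57391420-57391685, minus strand) lay in Cmss1 and was the antisense site with the third most reads, at 1391 and 1009 in KO against 974 and 1037 in WT. In normalized counts it had 913 and 871 in KO, below the 1322 and 1198 of WT, and was not called (DESeq2 adjusted p = 1.00).

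The next covering genes by number of sites, from Neb to Tacc2, had 8 to 13 each. Neb, which encodes the giant thin filament protein nebulin, covered 13 sites labelled 4930573O16Rik, a lncRNA that lies on the other strand inside Neb. They summed to 136 and 175 in KO against 80.1 and 98.2 in WT, so that the groups did not overlap, while the 139 sites coded to Neb in sense summed to 3522 and 3974 in KO against 3011 and 4373 in WT. Ghr, the growth hormone receptor, covered 10 sites labelled Gm41254 with sums of 65.0 and 35.4 in KO against 10.9 and 20.8 in WT. Psd3 covered 9 sites labelled Gm15991, at 89.3 and 63.9 in KO against 54.3 and 28.9 in WT. Ctnna3, an alpha-catenin, covered 8 sites labelled Lrrtm3, at 133 and 286 in KO against 73.3 and 46.2 in WT. Tmcc1 covered 8 sites labelled LOC108169163, at 65.6 and 44.0 in KO against 82.8 and 64.7 in WT. Tacc2 covered 8 sites labelled Gm34365, at 46.6 and 18.1 in KO against 51.6 and 38.1 in WT. At Tmcc1 and Tacc2 the groups overlapped. The share of all covering genes whose sums kept the groups apart was not counted, so none stands beside these sums or that of Filip1l. Cmss1, 4930573O16Rik, Gm41254 and Gm15991 had the most antisense sites, and the 8 of Lrrtm3 were matched by 8 each at Gm34365, LOC108169163 and Gm5088. Except Cmss1, these labels had 0 sense sites.

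Position along the labelled gene was read separately for sites with and without an own-strand gene. Of the 334 sites with no own-strand gene that lay within the labelled gene's span, 169 (50.6%) were in the 3′-most 10% of it, against 43.3% of 15324 contained sense sites. Of the 562 sites inside an own-strand gene, 85 (15.1%) were there, and the remaining sites were spread over the length of the labelled gene. Of 172 sites without an own-strand gene at or beyond 90% of the labelled gene, 19 had an own-strand gene that ended within 1000 bp upstream of the site and 75 within 10000 bp.

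**Figure D2:**
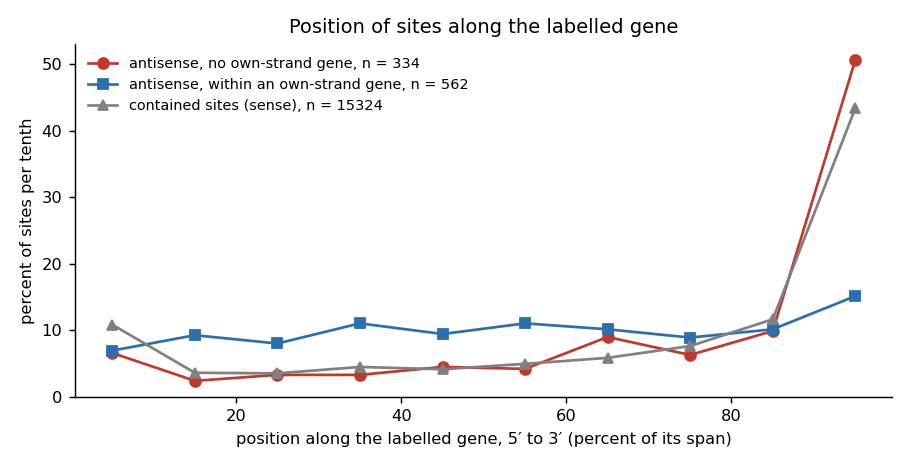
Percent of sites in each 10% of the labelled gene's span, read 5′ to 3′ along that gene, for antisense sites with no own-strand gene (red, n = 334), antisense sites within an own-strand gene (blue, n = 562) and contained sense sites (grey, n = 15324). The 3′-most 10% holds 50.6%, 15.1% and 43.3% of them.

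Fewer than 1 in 10 antisense sites had a sense site close by. Of the 770 symbols, 348 had at least 1 sense site and 422 had 0. A sense site of the same gene lay within 100 bp of 110 antisense sites (9.67%), and 57 of these overlapped it. The share was 78.9% on the mitochondrial genome, 20.5% where no own-strand gene was annotated and 1.13% inside an own-strand gene. In the 110 close pairs the sense site had more reads in 74 and the antisense site in 36.

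Sense reads outnumbered antisense reads in most genes that had both. The median antisense share of a gene's reads was 12.2% (quartiles 3.62% and 36.4%) over the 348 genes, and 52 of them had more antisense than sense reads. Those with most reads were ND2, LOC101056014, Tpm1, Filip1l and TrnP. At Tpm1, the α-tropomyosin gene, a site of 4 bp (chr9:67033962-67033965, plus strand) overlapped a sense site and held 1109 and 1653 reads in KO against 1043 and 542 in WT. Its normalized count was 1077 ± 494 (SD, n = 2) in KO and 1021 ± 558 in WT, and the 21 sense sites of Tpm1 summed to 735 and 714 in KO against 505 and 850 in WT. The antisense sites of LOC101056014 lay 394 and 484 bp beyond the end of Rn18s-rs5, the 18S ribosomal RNA gene at chr17:39846354-39848202. At the larger of them 2984 and 2352 reads were counted in KO against 932 and 2348 in WT, with a normalized count of 1994 ± 50.6 in KO and 1988 ± 1023 in WT.

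Antisense sites took about the same part of the reads in both genotypes. Their share of all reads was 1.32% and 1.52% in KO against 1.52% and 1.34% in WT, that is 1.42% ± 0.146 (SD, n = 2) and 1.43% ± 0.131. The difference of -0.00895 percentage points was smaller than the spread between replicates (exact permutation test, two-sided, p = 1, where 2 against 2 libraries cannot go below 0.333). The ND2 site of most reads held 20.1% of all antisense reads. Without that site the share was 1.09% and 1.31% in KO against 1.07% and 0.987% in WT, and the groups did not overlap (exact permutation p = 0.333). On primary chromosomes, without the mitochondrial genome and scaffolds, the share was 1.43% and 1.46% in KO against 1.33% and 1.26% in WT (exact permutation p = 0.333). Ribosomal RNA genes were left out of its denominator only. The antisense sites of LOC101056014, near an 18S ribosomal RNA gene, stayed in this share, with 3547 and 3010 reads in KO against 946 and 2602 in WT.

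Of the antisense sites, 8 were up-regulated in KO and 0 were down-regulated. They were A930016O22Rik, Rnr1, Hdgf, 4930556N13Rik, Lmod3, Xirp2, Gss and Gm15774, and in each of the 8 both KO libraries were above both WT libraries. Of the 263 antisense sites that passed the filter on low counts, 8 up-regulated sites are 3.04%, against 2.33% of all 11112 sites tested, and 0 down-regulated sites stand against 0.882% (DESeq2 Wald test, Benjamini-Hochberg adjusted p under 0.1 over all sites). An unadjusted p under 0.05 was reached by 34 antisense sites higher in KO and 4 lower in KO. The matching share over all tested sites was not counted, for DESeq2 or for edgeR below, so no trait of antisense sites is read from such counts. At any p, 59.3% of the tested antisense sites and 53.5% of all tested sites were higher in KO. The quasi-likelihood test of edgeR called 2 up (A930016O22Rik and 4930556N13Rik) and 0 down, with 32 and 2 at an unadjusted p under 0.05. The count moved with single libraries. Leaving out KO replicate 2 left 1 of the 8 called (A930016O22Rik), beside 1 other site (Gm4274), and leaving out WT replicate 2 gave 4 up and 2 down. With 1 library left in a group, the spread comes from the other pair and the lone library is assumed to vary like it. Of all 1138 sites, 291 (25.6%) had both KO libraries above both WT libraries in normalized counts, against 22.2% of all sites of the table, and 120 (10.5%) had both below, against 13.9%. The filter acts on the mean of the 4 libraries, and 71 of the 263 tested sites had a WT mean under it and 28 a KO mean under it.

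**Figure D3:**
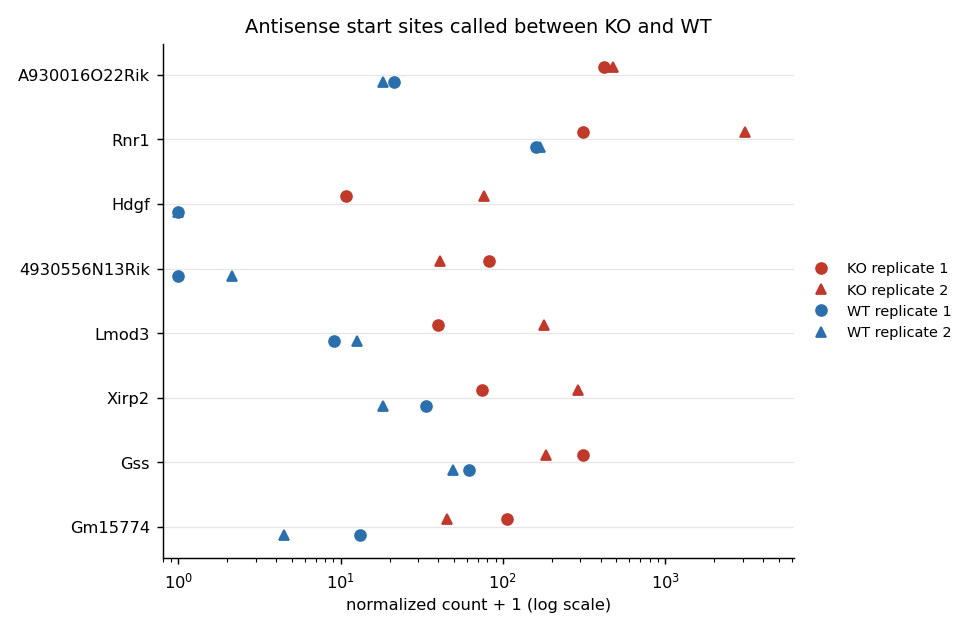
Normalized count plus 1 (log scale) of the 8 antisense sites called between KO (red) and WT (blue), with 1 point per library (circle, replicate 1; triangle, replicate 2). Both KO points lie to the right of both WT points at each site, from 417 and 477 against 20.4 and 17.3 at A930016O22Rik to 104 and 44.0 against 12.2 and 3.47 at Gm15774.

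The site with the smallest adjusted p lay in the muscle creatine kinase gene. It was labelled A930016O22Rik, a lncRNA that overlaps the 3′ part of Ckm on the other strand, and stood at chr7:19420506-19420527 on the plus strand, which is the strand of Ckm (chr7:19411094-19421583). Read counts were 636 and 553 in KO against 15 and 15 in WT. The normalized count was 447 ± 42.3 (SD, n = 2) in KO and 18.8 ± 2.14 in WT, a log2 fold change of 4.57 with an SE of 0.66 (DESeq2 adjusted p = 6.98e-09, edgeR adjusted p = 0.0319). It was called in 10 of 11 other fits, and edgeR with a replicate block gave an adjusted p of 0.108. The label A930016O22Rik had 2 antisense sites, both in Ckm, with 686 and 575 reads together in KO against 25 and 41 in WT. Most of these KO reads lay at the called site. At the other site of the label the normalized counts of KO and WT overlapped. Ckm encodes the enzyme that buffers ATP from phosphocreatine in muscle fibres. The 14 sites coded to Ckm itself summed to 1404 and 1729 normalized counts in KO against 1311 and 1856 in WT, which overlapped, and the nearest of them lay 362 bp away.

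A pair of the called sites lay antisense to actin-binding genes of the sarcomere. The same genes had shallower antisense sites as well, where the normalized counts of KO and WT overlapped. Such sites held 3 and 7 reads in KO against 4 and 0 in WT at Lmod3, and 6 and 17 against 3 and 14 at Xirp2. Lmod3 encodes leiomodin 3, which builds thin filaments, and its called site at chr6:97248294-97248298 (plus strand) held 59 and 205 reads in KO against 6 and 10 in WT. The normalized count was 108 ± 97.7 in KO and 9.85 ± 2.41 in WT, a log2 fold change of 3.45 with an SE of 0.97 (DESeq2 adjusted p = 0.0249). Xirp2 encodes a large actin-binding repeat protein, and its called site at chr2:67514165-67514235 (minus strand) held 111 and 333 reads in KO against 24 and 15 in WT. The normalized count was 180 ± 152 in KO and 24.9 ± 10.8 in WT, a log2 fold change of 2.86 with an SE of 0.84 (DESeq2 adjusted p = 0.0392). That site lay within the lncRNA Gm13601 on its own strand. Sense sites of these genes overlapped between the groups. They summed to 70.9 and 121 in KO against 52.9 and 85.5 in WT at Lmod3, and to 3271 and 3974 in KO against 3509 and 4646 in WT at Xirp2. KO replicate 2 was the highest library at both antisense sites, and without it the DESeq2 adjusted p was 1.00 for both.

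In 2 further called sites an own-strand gene was annotated. Gss encodes glutathione synthetase, and its site at chr2:155576046-155576068 lay in Gssos2, a lncRNA of the opposite strand to Gss. Counts were 476 and 212 reads in KO against 45 and 42 in WT, a log2 fold change of 2.18 with an SE of 0.67 (DESeq2 adjusted p = 0.0566). Neither Gss nor Gssos2 had a site coded to it in sense, so that no sense level stood beside it. Gm15774 is a lncRNA inside Eef2k, the kinase of elongation factor 2, and its site at chr7:120878794-120878800 lay on the strand of Eef2k. It held 159 and 51 reads in KO against 9 and 3 in WT, a log2 fold change of 3.26 with an SE of 1.03 (DESeq2 adjusted p = 0.0641). The 6 sites coded to Eef2k in sense summed to 212 and 63.0 in KO against 107 and 72.8 in WT, and these ranges overlapped.

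Hdgf, 4930556N13Rik and Rnr1 made up the rest. Hdgf encodes a heparin-binding growth factor, and its site at chr3:87914181-87914186 (minus strand) held 15 and 87 reads in KO against 0 and 0 in WT, which is at least 11.3-fold higher against a floor of 3 counts per library (DESeq2 adjusted p = 0.0111). The normalized count was 9.84 in KO replicate 1 and 75.1 in KO replicate 2, so that replicate 1 alone was 2.61-fold over the floor, and without replicate 2 the adjusted p was 1.00. The 5 sense sites of Hdgf summed to 117 and 139 in KO against 106 and 106 in WT. The site of 4930556N13Rik, a lncRNA on a scaffold, held 124 and 46 reads in KO against 0 and 1 in WT, at least 16.1-fold higher (DESeq2 adjusted p = 0.0129). The site of Rnr1, the 12S ribosomal RNA gene of the mitochondrion, held 471 and 3579 reads in KO against 117 and 146 in WT. Its log2 fold change of 3.38 with an SE of 0.82 (DESeq2 adjusted p = 0.0055) rested on KO replicate 2, and the adjusted p was 1.00 without that library. Other calls were lost without other libraries. Without KO replicate 1 these were Gss, Gm15774 and 4930556N13Rik, with DESeq2 adjusted p-values of 1.00, 1.00 and 0.493. Without WT replicate 1 they were Lmod3 and Gss, at 0.143 and 0.120. Without WT replicate 2 they were Hdgf, Lmod3, Xirp2, Gss and Gm15774, at 0.142 to 0.459.

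Antisense sites of the sarcomere genes, the proteins of the contractile unit of muscle, were then read as a group. Of 50 genes listed, 15 had 26 antisense sites between them, and 11 of these sites were tested. The 2 at Lmod3 and Xirp2 were up-regulated, 0 were down-regulated and 9 were not called, against 2.33% up-regulated over all sites. Over all 26 sites, both KO libraries were above both WT libraries at 9, against 22.2% of all sites of the table, both were below at 3, against 13.9%, and the groups overlapped at 14. Of the 11 tested sites, 3 (at Myh1, Neb and Ttn) had a WT mean under the filter and passed it through the KO libraries. The 3 sites lower in KO were at Ttn and Cmya5 and held too few reads to be tested, such as 1 and 1 reads in KO against 6 and 5 in WT at Ttn.

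**Figure D4:**
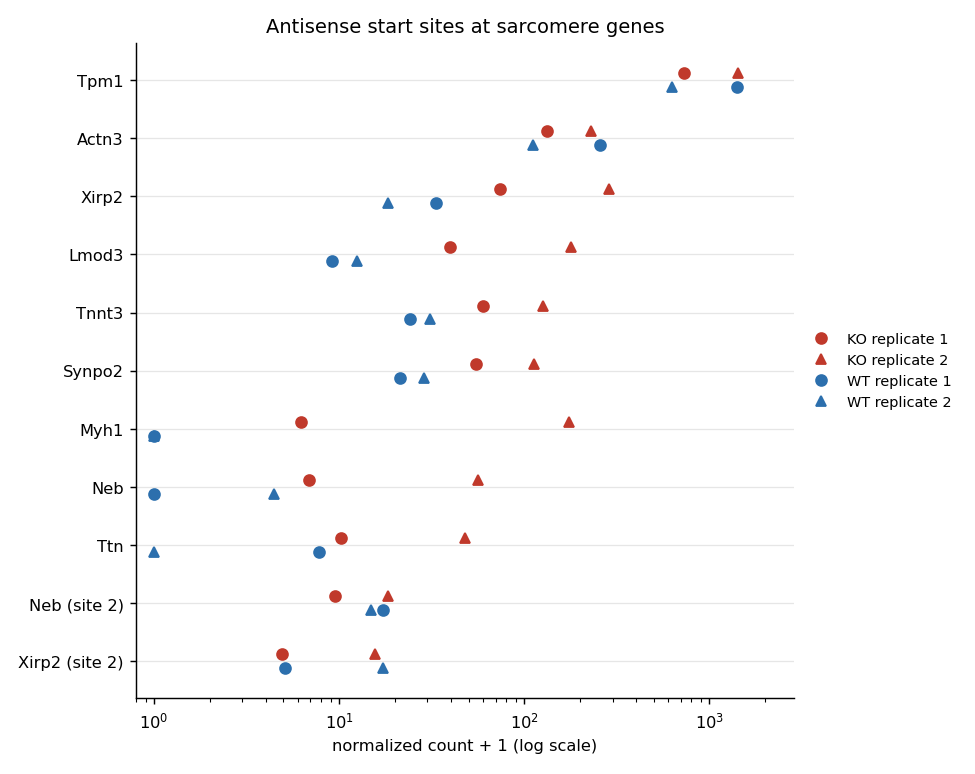
Normalized count plus 1 (log scale) at the 11 tested antisense sites of sarcomere genes, with 1 point per library (KO red, WT blue, circle for replicate 1 and triangle for replicate 2). The KO points lie to the right of the WT points from Xirp2 to Ttn, with KO replicate 2 the higher, and overlap them at Tpm1, Actn3 and the second sites of Neb and Xirp2.

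At the 9 tested sarcomere sites without a call, KO replicate 2 was again the higher KO library in normalized counts. Tnnt3, the fast troponin T, had a site near its 3′ end (chr7:142515995-142516023, minus strand) with 90 and 146 reads in KO against 17 and 26 in WT, a log2 fold change of 1.80 with an SE of 0.83 (DESeq2 adjusted p = 0.399). Synpo2, a Z-disc protein, had 82 and 129 reads in KO against 15 and 24 in WT (DESeq2 adjusted p = 0.441, log2 fold change 1.78 with an SE of 0.85). A site of Neb that lay on the strand of 4930573O16Rik had 9 and 64 reads in KO against 0 and 3 in WT (DESeq2 adjusted p = 0.251). One of Ttn, the giant spring of the sarcomere, had 14 and 54 in KO against 5 and 0 in WT (DESeq2 adjusted p = 0.529). Actn3, the fast α-actinin, had 201 and 265 reads in KO against 189 and 96 in WT, and the normalized counts overlapped.

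At the sites kept, the fast myosin heavy chain genes each had antisense reads in KO only, most of them in a single library. A site was kept by its total reads, a minimum that the deeper KO libraries fill more readily. The part of that minimum in the lack of WT reads was not tested. The site of Myh1 (type IIx, chr11:67215057-67215079) held 8 and 200 reads in KO against 0 and 0 in WT (DESeq2 adjusted p = 0.290). The larger site of Myh4 (type IIb, chr11:67253291-67253307) held 2 and 37 reads in KO against 0 and 0 in WT, and that of Myh2 (type IIa, chr11:67189459-67189471) held 0 and 37 in KO against 0 and 0 in WT. The sites of Myh4 and Myh2 fell under the filter on low counts. All 3 lay on the minus strand and overlapped a sense site of their gene. Summed normalized counts of the sense sites overlapped between the groups, with 17546 and 24021 in KO against 15420 and 25072 in WT at Myh4 and 956 and 1119 in KO against 788 and 1541 in WT at Myh1.

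The ratio of antisense to sense reads was tested within genes. Of the 348 genes with both, 0 passed an adjusted p of 0.1 in DESeq2, with 21 ratios higher and 8 lower in KO at an unadjusted p under 0.05. edgeR also called 0, with 21 at an unadjusted p under 0.05. The smallest adjusted p was 0.212, for Myh4, Myh1 and Hdgf. The antisense share of Myh1 reads was 0.546% and 13.4% in KO and 0% in both WT libraries, and that of Hdgf reads was 7.77% and 35.1% in KO and 0% in both WT libraries. The next were Dock2, with 0% in both KO libraries and 12.2% and 28.0% in WT, and Kctd3, with 14.8% and 75.0% in KO and 0% in both WT libraries (DESeq2 adjusted p = 0.461 for both). Without KO replicate 1, 9 genes were called, all higher in KO, among them Myh1, Myh2 and Myh4. That count sets KO replicate 2 alone against the WT pair, and this library held 200 of the 208 antisense reads of Myh1, 37 of 37 at Myh2 and 37 of 50 at Myh4.

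Among genes with both antisense and sense sites, the median antisense share was higher in both KO libraries than in both WT libraries. Over 256 genes with at least 10 reads in every library, the median share was 5.31% and 7.41% in KO against 4.06% and 4.27% in WT, that is 6.36% ± 1.48 (SD, n = 2) and 4.16% ± 0.150. The difference was 2.19 percentage points (exact permutation test, two-sided, p = 0.333, the smallest that 2 against 2 libraries allow), and the part in it of the minimum of 10 reads per site, which the deeper KO libraries fill more readily, was not tested. Among the 189 genes whose antisense sites had no own-strand gene, the median was 5.17% and 7.37% in KO against 3.23% and 3.28% in WT. With intronic sense sites left out it was 7.59% and 11.6% in KO, above the 7.24% and 4.82% of the WT libraries.

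**Figure D5:**
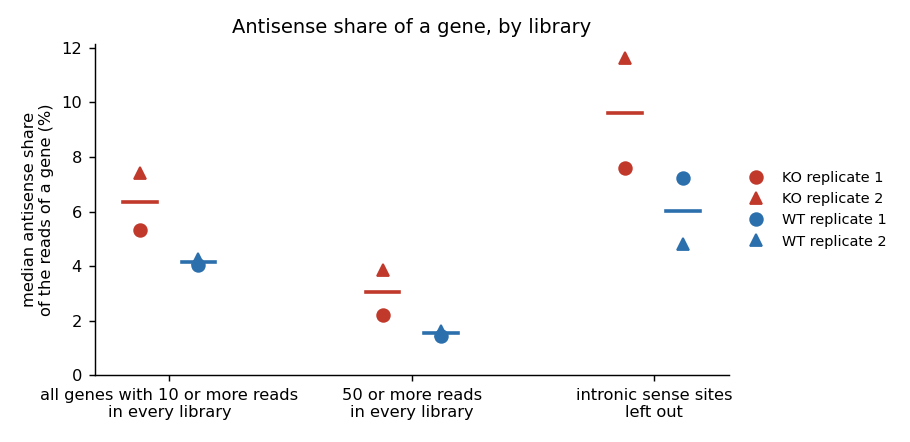
Median over genes of antisense reads as a percent of all reads of the gene, by library (KO red, WT blue, circle for replicate 1 and triangle for replicate 2), with the group mean as a line. Both KO libraries lie above both WT libraries in each of the 3 selections of genes, by 2.19 percentage points of the means in the first.

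On the mitochondrial genome 37 of the 38 antisense sites lay on the minus strand, opposite to the strand that carries most of its genes. ND2, a subunit of respiratory complex I, had 5 antisense sites. The one with most reads spanned positions 4038 to 4400 and held 6650 and 4855 reads in KO against 5919 and 5505 in WT. Its normalized count was 4277 ± 123 in KO and 7195 ± 1183 in WT, so that both KO libraries were below both WT libraries, but the log2 fold change of -0.75 (SE 0.53) was not called (DESeq2 adjusted p = 0.850). Of 27 tested mitochondrial sites, 1 was up-regulated (Rnr1), against 2.33% of all sites tested. Of all 38, 9 had both KO libraries below both WT libraries and 6 had both above, against 13.9% and 22.2% of all sites of the table. The single site on the plus strand, labelled TrnP, had 964 and 1044 normalized counts in KO against 1058 and 1073 in WT. In sites of ND5 and Rnr2 the KO and WT libraries overlapped.

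Other groups of genes had few antisense sites. Glycolysis and glycogen genes had 0 sites for 26 genes listed, although the called site in Ckm lay on that gene's own strand. Calcium handling had 1 site each at Atp2a1, Jph1 and Trdn, with 11 to 18 reads each, and 0 of them were tested. Of 11 genes of the AMPK complex and its upstream kinases, Camkk2 alone had an antisense site, with 9 and 1 reads in KO against 0 and 0 in WT. The 5 ribosomal protein symbols with antisense sites were all pseudogenes, among them Rpl31-ps8 with 15 and 49 reads in KO against 4 and 0 in WT (DESeq2 adjusted p = 0.467). Genes with a Riken or predicted (Gm) name had 452 antisense sites, of which 98 were tested and 3 up-regulated, against 2.33% of all sites tested. Both KO libraries were above both WT libraries at 111 of the 452 and below at 41, against 22.2% and 13.9% of all sites of the table. Among the most abundant of these, Gm13601 had 905 and 310 reads in KO against 184 and 146 in WT on the strand of Xirp2, and Gm31439 had 395 and 152 reads in KO against 963 and 39 in WT, so that its WT libraries differed from each other more than the groups did.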

How the data were processed

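WTSS-seq libraries of 2 KO and 2 WT mice were compared. The authors deposited 1 table of raw read counts, with a row per clustered start site and its Cuffcompare code, on GRCm38.p5 per the labels. Mapping and clustering settings were described for 3′ ends and are not given for these libraries in the sources used here. Strand was taken as the table gives it. No molecular identifiers were described, so the floor of 3 counts covers counting error only.

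All 42207 sites were tested with DESeq2 1.42.0 (R 4.3.3, Wald test, adjusted p under 0.1), following the study, and with edgeR 4.0.16. Independent filtering kept sites above a mean normalized count of 8.76. Ratios were tested as a strand by group interaction on counts summed per gene and strand. Tests were tried on simulated data. RefSeq tables of GRCm38.p6 gave gene spans, promoter windows and part of the strands, and matched 701 of 770 symbols. A gene without a RefSeq strand took that of its own non-intronic sense sites, or else the strand opposite to its antisense sites. Placement in own-strand genes thus rests partly on the sites themselves. Own-strand genes were taken from the 28961 genes of 49997 with a known strand, so more may exist. Named were the 10 most abundant sites, called sites (up to 8 per direction), 5 genes per gene-level rule and 3 sites per gene list; other members were named after their values were seen. Members and lists were chosen with earlier results of these data known. Values are means ± SD. Replicates differed beyond sampling noise (chi-square per degree of freedom 11.1 in KO and 6.09 in WT). Same-numbered libraries did not deviate together (correlation 0.0380 over tested antisense sites).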

Additional observations from a re-analysis of the deposited data

How the results depend on the processing

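The count of 8 up-regulated antisense sites moved to 2 with edgeR and to 5 without independent filtering. With a replicate block it was 6 in DESeq2 (5 of the 8 among them) and 0 in edgeR. In that edgeR fit 25 up and 2 down had an unadjusted p under 0.05, and the matching share over all sites was not counted. The count of up-regulated sites was 8 with sites of 20 or more reads, with TMM factors and with library totals, and 6 at an adjusted p under 0.05. Leaving out 1 library, where the lone library of a group is assumed to vary like the other pair, gave 2 to 8 up and 0 to 2 down. Of the 0 down-regulated sites, library totals gave 1 (LOC108167565). Only sites outside own-strand genes and the mitochondrial genome, a selection made after seeing the data, held 2 of the 8. The replicate numbers share only a number, and the cause of these moves was not tested. Genes with a changed ratio were 3 with 20 or more antisense reads, and 0 to 9 with a library left out. The difference in the share of reads was 0.174 percentage points without the ND2 site of most reads. It was 0.151 on primary chromosomes with ribosomal RNA genes out of the denominator. With all antisense sites kept and the denominator alone restricted, the difference was -0.108. Within replicate numbers (replicate block) it was -0.00895, and with a library left out -0.112 to 0.0942. The median antisense share differed by 3.58 points without intronic sense sites, 1.50 with 50 or more reads, 2.19 within replicate numbers (replicate block) and 1.15 to 3.24 with a library left out. The share of antisense sites with a sense site nearby was 5.01% for overlap, 5.98% within 24 bp, 17.6% within 500 bp, and 13.1% among sites with 20 or more reads. With a median of 18.5 reads per site, 875 of the 1138 sites were not tested.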
